A study of Homo sapiens with 6 samples.

Results

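The HOX cluster genes are the homeobox genes of the HOXA, HOXB, HOXC and HOXD clusters. They were taken as every gene whose probe set carries a single symbol made of HOX, a cluster letter and a number, and each gene was represented by its brightest probe set. This gave 28 of the 19775 genes that had a probe set of their own, from 44 probe sets. After a filter on dim probe sets, 23 of the 28 were among the 13720 genes tested. The gene table used for gene order holds 39 HOX genes, and the other 11 (10 genes of the HOXA cluster and HOXD3) were not analysed here.

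RNA from U251 cells, an established human glioma line, was measured on 3 arrays of cells overexpressing PARK2, which codes for the ubiquitin ligase parkin, and on 3 arrays of control cells overexpressing GFP, a fluorescent protein. Both lines were stable lines obtained by infection with virus and selection in puromycin, and both were grown in the same serum-containing medium, so the control cells share the infection and the selection. The labels name the arrays of each group biological replicates but give no separate cultures or infections, so a p-value here covers the variation among these arrays, and that may be technical only. The single comparison asks which transcripts differ between the PARK2 line and the control line.

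HOX genes encode transcription factors that bind DNA through a homeodomain and tell cells where they lie along the axis from head to tail. In each cluster, the genes lie in the order in which they are used along the body, and genes of the same number in different clusters are paralogues. Polycomb complexes keep the clusters silent where they are not used, Trithorax-type complexes keep them active, and retinoic acid switches on the low-numbered genes in the embryo. The forebrain forms without HOX expression, whereas glioma cells often express several HOX genes.

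On the arrays, 3 of the 23 tested HOX genes were higher in PARK2 cells than in control cells (13.0%, against 13.3% of all genes tested) and 4 were lower (17.4%, against 15.6% of all genes tested). HOXD10, HOXC6 and HOXD11 rose, and HOXB3, HOXB6, HOXC9 and HOXD1 fell. The threshold was an adjusted p of 0.05 from limma, a linear model fitted across all genes on log2(value + 16), with Benjamini-Hochberg adjustment. The share of HOX genes called in either direction was 30.4%, close to the 28.8% of all genes tested, and the median HOX log2 fold change was -0.13, against -0.0026 for all genes tested. The median size of the change was 0.24 for HOX genes and 0.25 for all genes. The called genes lay in 3 of the 4 clusters and went in both directions in HOXC and HOXD. The 3 arrays of each group did not overlap in 11 of 23 HOX genes (47.8%, against 39.5% of all genes): PARK2 lay above in 5 (18.3% of all genes) and below in 6 (21.1% of all genes). With a change of at least 1.5-fold also required, 4 HOX genes remained called, where 7.75% of all genes were higher and 9.41% were lower. Fold changes below are PARK2 over control on the log2(value + 16) scale, which understates the change of dim genes, and intensities are linear array units that can be compared between groups for 1 probe set but not between genes.

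**Figure D1:**
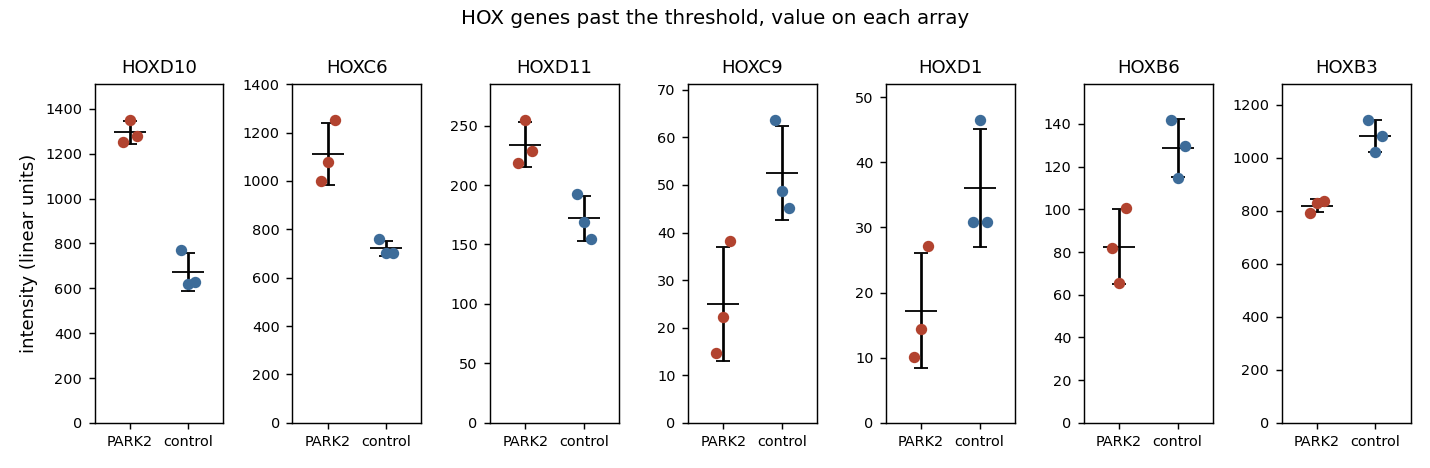
Intensity on each array (linear units, 1 panel per gene with its own axis) of the 7 HOX genes past the threshold, in PARK2 cells and in control cells. Points are arrays, the horizontal line is the mean and the bars are 1 SD (n = 3 per group). HOXD10, HOXC6 and HOXD11 lie higher on every PARK2 array than on any control array, and HOXC9, HOXD1, HOXB6 and HOXB3 lie lower.

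HOXD10, the HOX gene with the largest change on the log2(value + 16) scale, is a gene of the tail-ward part of the HOXD cluster and acts in limb and lumbar motor neuron development in mice. Its intensities were 1254, 1350.5 and 1281 on the PARK2 arrays, against 772, 621 and 627 on the control arrays. The lowest PARK2 array lay well above the highest control array, and the means were 1295 ± 49.8 in PARK2 cells and 673 ± 85.5 in control cells (SD, n = 3 each). The log2 fold change was 0.93 (SE 0.14, 95% confidence interval 0.65 to 1.22, adjusted p = 1.9e-07). Both other HOXD10 probe sets rose as well when every probe set was tested separately. The first had 173, 225 and 236 on the PARK2 arrays, against 113, 91.6 and 95.9 on the control arrays (log2 fold change 0.96, adjusted p = 0.00052). The second had 161, 124 and 144 on the PARK2 arrays, against 104, 71.3 and 58.4 on the control arrays (0.78, adjusted p = 0.0073). HOXD10 kept its call under all 21 alternative settings tried, with log2 fold changes of 0.78 to 1.04. With a pseudocount of 1, the dimmer genes HOXC11 (1.17, not called), HOXC9 (-1.12) and HOXD1 (-1.11) had larger values than HOXD10 (0.95).

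Next to it, HOXD11, which patterns the forearm and the kidney in mice together with its paralogues, had 219, 255 and 229 on the PARK2 arrays, against 192, 169 and 154 on the control arrays. The groups did not overlap, but the gap between them was smaller than the range within either group. The means were 234 ± 18.6 in PARK2 cells and 172 ± 19.1 in control cells, and the log2 fold change of 0.41 (SE 0.16) passed the threshold narrowly (adjusted p = 0.048). This call was lost in 12 of 21 alternatives, among them 5 of the 6 fits that left out 1 array, in which the adjusted p reached 0.240.

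At the head-ward end of the same cluster, HOXD1, which shapes pain-sensing neurons in mice, had 10.1, 14.5 and 27.1 on the PARK2 arrays, against 30.8, 46.5 and 30.8 on the control arrays. All PARK2 arrays lay below all control arrays, at intensities near the dim end of the genes tested. The means were 17.2 ± 8.83 in PARK2 cells and 36.0 ± 9.05 in control cells, with a log2 fold change of -0.67 (SE 0.23, adjusted p = 0.019). Replacing the pseudocount of 16 by 1 gave -1.11, and by 64 gave -0.30. The call was lost without PARK2 replicate 1 (adjusted p = 0.141), PARK2 replicate 2 (0.0642) or control replicate 2 (0.139). The called HOXD1 probe set is of a kind that can read several transcripts, and HOXD1 had no value once such sets were dropped. HAGLR, a non-coding RNA read from the opposite strand beside HOXD1, fell as well. It had 107, 124 and 100.3 on the PARK2 arrays, against 265, 227 and 195 on the control arrays, a log2 fold change of -0.95 (SE 0.17, adjusted p = 5.9e-06), and a second HAGLR probe set fell by 0.62 on the log2 scale (adjusted p = 0.030 with every probe set tested).

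The promoter sequences of the called HOXD genes are given here as a description of their letters. They are from RefSeq (GRCh38.p14, plus strand) and run from 250 bases before to 50 bases after the start of each gene. Capitals mark CACGTG, the core of an E-box, and the CCAAT box, here printed as ATTGG because it lies on the opposite strand. The windows are chr2:176116528-176116827 for HOXD10, chr2:176107030-176107329 for HOXD11 and chr2:176188418-176188717 for HOXD1.
HOXD10: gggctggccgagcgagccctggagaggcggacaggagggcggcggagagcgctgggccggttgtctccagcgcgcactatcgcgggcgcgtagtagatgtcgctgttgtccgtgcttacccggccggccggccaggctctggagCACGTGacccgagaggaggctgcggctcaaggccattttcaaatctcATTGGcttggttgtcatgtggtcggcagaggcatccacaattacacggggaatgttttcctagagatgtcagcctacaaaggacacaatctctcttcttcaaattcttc
HOXD11: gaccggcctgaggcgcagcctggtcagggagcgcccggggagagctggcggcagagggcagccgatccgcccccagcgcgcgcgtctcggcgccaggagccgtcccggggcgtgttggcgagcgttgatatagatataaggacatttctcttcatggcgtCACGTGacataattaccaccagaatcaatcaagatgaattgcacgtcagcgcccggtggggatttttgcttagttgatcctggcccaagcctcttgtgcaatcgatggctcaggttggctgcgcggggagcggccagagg
HOXD1: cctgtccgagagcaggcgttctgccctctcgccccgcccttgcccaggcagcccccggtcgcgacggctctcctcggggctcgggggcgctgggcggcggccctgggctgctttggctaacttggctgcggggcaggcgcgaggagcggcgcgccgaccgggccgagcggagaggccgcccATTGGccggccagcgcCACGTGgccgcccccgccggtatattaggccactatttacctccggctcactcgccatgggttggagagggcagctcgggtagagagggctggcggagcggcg

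Promoters were found in the table for 11 of the 28 genes, 7 of them in the HOXD cluster. Both strands were searched for CACGTG, for the CCAAT box and for the TATA box as TATAAA. These motifs do not overlap each other in the printed windows, and they were chosen with the values of the genes known. CACGTG occurred 106 bases before the start of HOXD10, 90 bases before that of HOXD11 and 53 bases before that of HOXD1, so the letters are shared by genes that rose and a gene that fell. It was present in 4 of the 7 HOXD windows, the other one being HOXD13, which was not called. Over all 11 HOX windows it was present in the same 4 only, and over all 35116 promoters in the table in 7.26%. CCAAT was found in 5 of the 7 HOXD windows, in 9 of the 11 HOX windows and in 34.6% of all promoters. The HOXC4 and HOXC5 windows hold it at the same places, 200 and 77 bases before the start. They may be the same stretch counted for both genes. TATAAA was found in 1 of the 11, that of HOXD13, and in 11.5% of all promoters. The windows hold 23 CG pairs in HOXD10, 27 in HOXD11 and 36 in HOXD1, against a median of 14 over all promoters. Of 4 HAGLR promoter windows on the minus strand, one shares 195 bases with the HOXD1 window and another shares 102. A match is a description of the letters only.

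The other HOXD genes were not called. HOXD8 had 111, 110.0 and 128 on the PARK2 arrays, against 143, 114 and 93.0 on the control arrays, and the groups overlapped fully (log2 fold change 0.012, 95% confidence interval -0.34 to 0.36, adjusted p = 0.973). HOXD4, a hindbrain gene under retinoic acid control, had 73.8, 75.9 and 84.1 on the PARK2 arrays, against 69.1, 55.0 and 71.5 on the control arrays. These groups did not overlap, but the difference did not pass the test (0.22, adjusted p = 0.433), and a second HOXD4 probe set had the opposite sign (-0.11). HOXD9, a limb gene, averaged 48.7 ± 7.76 in PARK2 cells and 57.1 ± 11.6 in control cells (-0.17, adjusted p = 0.581). HOXD13, the digit gene at the tail-ward end, averaged 38.1 ± 7.29 in PARK2 cells and 31.0 ± 9.89 in control cells (0.22, adjusted p = 0.505).

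In the HOXC cluster on chromosome 12, HOXC6 rose and HOXC9 fell, while the other 6 tested genes were not called. HOXC6, which takes part in motor neuron identity at forelimb level in vertebrates, had 1001, 1079 and 1252 on the PARK2 arrays, against 758, 704 and 702 on the control arrays. Every PARK2 array lay above every control array, and the spread was wider in PARK2 cells (1111 ± 129) than in control cells (721 ± 31.8). The log2 fold change was 0.61 (SE 0.14, 95% confidence interval 0.32 to 0.89, adjusted p = 0.00054). HOXC6 kept its call in the 20 alternatives that gave it a value, and with 1 array left out it ran from 0.52 to 0.68 (adjusted p up to 0.0245). Its single probe set is of a kind that can read several transcripts, so it had no value once such sets were dropped. In the RefSeq gene table, the models of HOXC4, HOXC5 and HOXC6 begin at the same base, and these 3 genes may share transcripts. HOXC4 had 179.7, 186 and 221 on the PARK2 arrays, against 204, 204 and 185 on the control arrays (-0.018, 95% confidence interval -0.34 to 0.31, adjusted p = 0.954). HOXC5 averaged 39.8 ± 6.26 in PARK2 cells and 44.7 ± 4.28 in control cells (-0.13, adjusted p = 0.709). The probe sets of the 3 genes thus did not move together, although the differences between them were not tested.

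HOXC9, which defines thoracic motor neurons in mice, had 14.8, 22.2 and 38.2 on the PARK2 arrays, against 63.7, 48.7 and 45.2 on the control arrays. The groups did not overlap, and both were dim, with 25.0 ± 11.96 in PARK2 cells and 52.5 ± 9.83 in control cells. The log2 fold change of -0.77 (SE 0.21, adjusted p = 0.0037) became -1.12 with a pseudocount of 1 and -0.39 with 64. HOXC9 no longer passed when PARK2 replicate 1 (adjusted p = 0.0661) or control replicate 1 (0.055) was left out.

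HOXC10, a lumbar-level gene, had 152, 171 and 165 on the PARK2 arrays, against 179, 221 and 189.7 on the control arrays. HOXC13, a hair and nail gene, had 67.8, 73.5 and 84.2 on the PARK2 arrays, against 94.5, 105 and 104 on the control arrays. All PARK2 arrays lay below all control arrays in both genes, yet neither difference passed (-0.25, adjusted p = 0.291 for HOXC10, and -0.36, adjusted p = 0.124 for HOXC13). HOXC11 lay the other way, with 18.9, 18.2 and 13.6 on the PARK2 arrays, against 4.22, 7.46 and 10.1 on the control arrays (0.50, SE 0.24, adjusted p = 0.117). Its value was 1.17 with a pseudocount of 1 and 0.18 with 64, and neither passed (adjusted p = 0.126 and 0.127). HOXC8, a brachial-level gene, averaged 13.4 ± 5.78 in PARK2 cells and 17.5 ± 5.32 in control cells (-0.19, adjusted p = 0.622).

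In the HOXB cluster on chromosome 17, HOXB3 and HOXB6 fell and the other 5 tested genes were not called. HOXB3, which acts in the hindbrain and in blood progenitors, had 791, 831 and 839 on the PARK2 arrays, against 1143, 1022 and 1082 on the control arrays. The groups lay apart, at 820.2 ± 25.4 in PARK2 cells and 1082 ± 60.7 in control cells, and the log2 fold change was -0.39 (SE 0.14, adjusted p = 0.026). A second, dim HOXB3 probe set had 21.1, 34.2 and 43.2 on the PARK2 arrays, against 56.2, 45.5 and 54.4 on the control arrays (-0.50), and did not pass with every probe set tested (adjusted p = 0.0964). The HOXB3 call was lost in 8 of 21 alternatives, including 4 of the 6 fits without 1 array (PARK2 replicates 1, 2 and 3 and control replicate 2), where the adjusted p reached 0.108.

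HOXB6, a gene of blood and lung tissue, had 81.8, 65.4 and 101 on the PARK2 arrays, against 142, 115 and 129.5 on the control arrays. The means of 82.6 ± 17.7 in PARK2 cells and 129 ± 13.5 in control cells gave a log2 fold change of -0.57 (SE 0.18, adjusted p = 0.011). Without PARK2 replicate 2, HOXB6 was no longer called (-0.43, adjusted p = 0.146). Like that of HOXC6, its called probe set can read several transcripts, and HOXB6 had no value once such sets were dropped. HOXB7, which lies next to it, had 523, 491 and 559 on the PARK2 arrays, against 713.5, 618 and 549 on the control arrays. These groups overlapped, and the difference did not pass (-0.24, 95% confidence interval -0.54 to 0.05, adjusted p = 0.239).

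The remaining HOXB genes tested were dim. HOXB2, a hindbrain gene, averaged 14.9 ± 5.07 in PARK2 cells and 14.4 ± 3.44 in control cells (0.016, adjusted p = 0.973). HOXB5, which acts in the enteric nervous system, averaged 44.7 ± 7.74 in PARK2 cells and 54.9 ± 11.3 in control cells (-0.22, adjusted p = 0.465). HOXB9 averaged 35.9 ± 5.61 in PARK2 cells and 27.96 ± 5.87 in control cells (0.24, adjusted p = 0.444), with the opposite sign in its second probe set (-0.16). HOXB13, a prostate and tail-end gene, averaged 21.2 ± 8.69 in PARK2 cells and 20.3 ± 7.57 in control cells (0.029, adjusted p = 0.949).

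The only HOXA gene analysed was HOXA2, which patterns the hindbrain and the pharyngeal arches. It had 12.8, 8.95 and 6.03 on the PARK2 arrays, against 15.5, 11.5 and 13.3 on the control arrays (-0.23, SE 0.24, adjusted p = 0.554). Its groups overlapped, and its level was close to the filter. HOXB1, HOXB4, HOXB8, HOXC12 and HOXD12 were not tested because they lay under the filter, at intensities of 0.361 to 11.7 on any array. HOXB1 and HOXB4 act in the hindbrain and in blood stem cells, and none of the 5 can be called absent from these values.

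**Figure D2:**
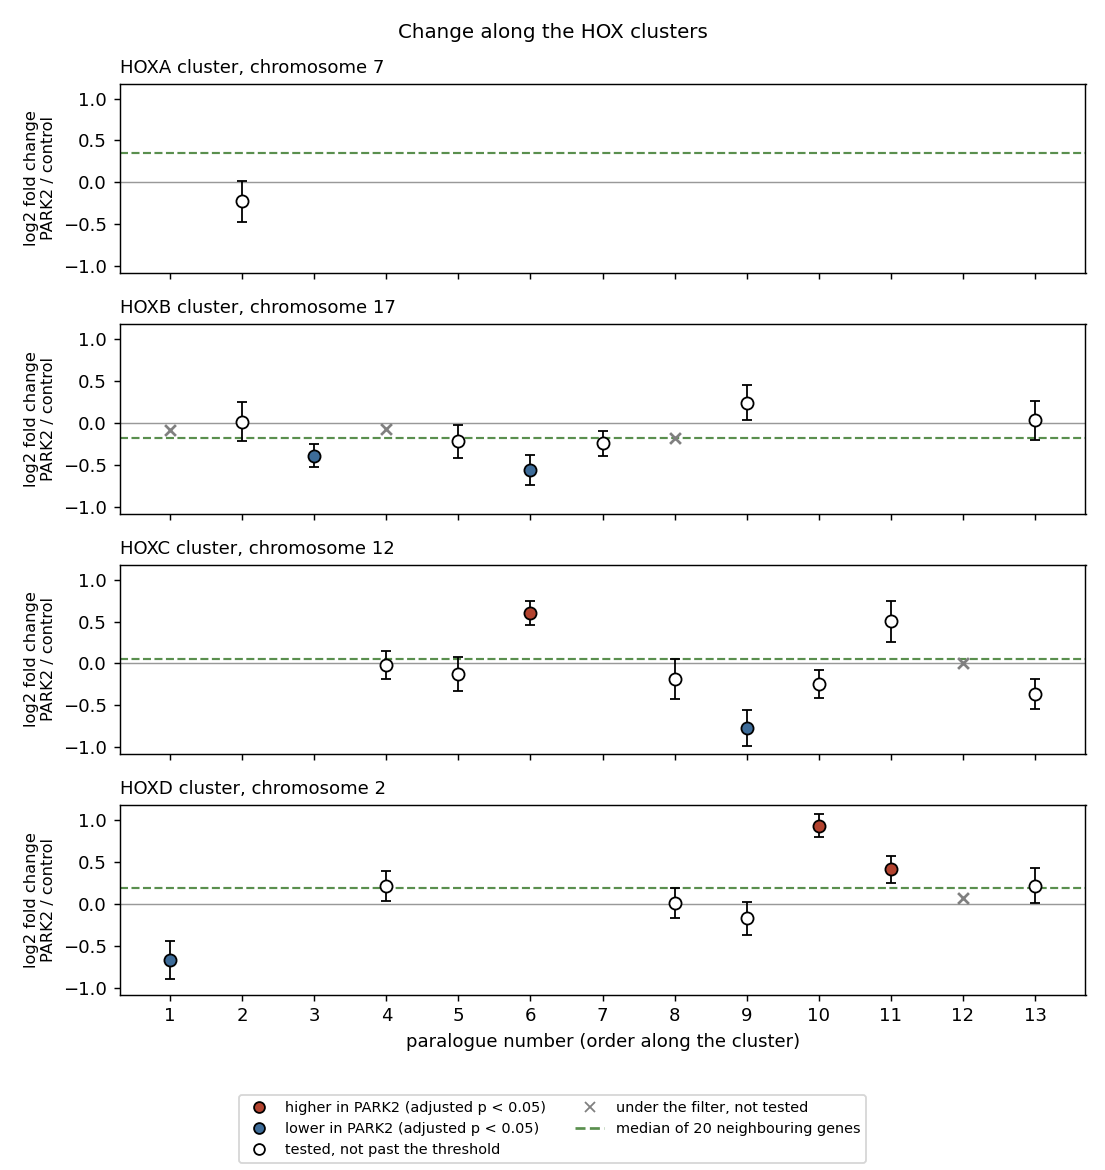
Log2 fold change (PARK2 over control, log2(value + 16) scale) of each HOX gene by its number along the cluster, 1 panel per cluster. Bars are 1 SE, filled points passed the threshold, crosses were under the filter and were not tested, and the dashed line is the median of the 20 nearest tested genes without a HOX symbol. In HOXD, the changes ran from -0.67 in HOXD1 to 0.93 in HOXD10.

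Along the clusters, the called genes were not contiguous except for HOXD10 and HOXD11. Of the 8 HOXD genes with a probe set, 7 were tested, 2 rose and 1 fell (median log2 fold change 0.22). HOXC had 8 of 9 genes tested, with 1 higher and 1 lower (median -0.16), and HOXB had 7 of 10 tested, with 2 lower (median -0.22). Paralogues did not share a direction in every case. HOXC6 rose and HOXB6 fell, and HOXD10 rose while HOXC10 had -0.25. HOXC9 fell while HOXB9 had 0.24 (-0.16 in its second probe set), and HOXD9 had the sign of HOXC9 (-0.17). HOXD11 rose, and HOXC11 had the same sign without a call (0.50). Differences between paralogues were not tested.

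The genes around the clusters were counted too, to be read against 13.3% higher and 15.6% lower of all genes tested. Among the 20 nearest tested genes around HOXB, 0 were higher and 7 were lower (median -0.19), close to the HOXB median. Around HOXD, 6 were higher and 0 were lower (median 0.19), around HOXC 0 and 2 (median 0.048), and around HOXA 9 and 1 (median 0.35). In 1 setting, each gene's value was set against the median of its 20 nearest tested genes on each side, HOX genes left out. Unlike the genes counted above, these neighbours could include non-coding RNAs that lie inside a cluster. HOXB3 was then at -0.086 (adjusted p = 0.488), HOXB6 at -0.26 (0.206) and HOXD11 at 0.26 (0.072), so all 3 calls were lost. HOXD10 kept its call at 0.78 (adjusted p = 7.13e-06), as did HOXC6 at 0.59 (0.00056), HOXC9 at -0.78 (0.011) and HOXD1 at -0.84 (0.0135). HOXA2, not called before, passed at -0.64 (0.0466). The part of the surrounding region in the HOX changes was not tested further.

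The closest neighbours did not all follow their cluster. Beside HOXD, LNPK rose (0.43, adjusted p = 0.036) and MTX2 had 0.14 (adjusted p = 0.506), both genes long known as the flanks of the cluster. ATP5MC3, ATF2, LINC01116 and HNRNPA3 had -0.084 to 0.35 and were not called. Beside HOXC, LINC02381 averaged 57.2 ± 13.0 in PARK2 cells and 135 ± 23.2 in control cells, a fall (-1.05, adjusted p = 4.5e-06), while CALCOCO1, ATP5MC2, ATF7, FLJ12825 and SMUG1 had -0.13 to 0.28 without a call. Beside HOXB, ATP5MC1, a subunit of the ATP synthase, fell (-0.67, adjusted p = 0.00030), and LOC101927166, SNX11, CBX1, CALCOCO2 and UBE2Z had -0.24 to 0.029. Beside HOXA, SKAP2 rose (1.00, adjusted p = 6.7e-08), TAX1BP1 rose (0.53, adjusted p = 0.0013) and SNX10 fell (-1.22, adjusted p = 7.7e-10), while LINC02981, HIBADH and the cluster's own non-coding RNA HOTTIP had -0.0021 to 0.062.

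**Figure D3:**
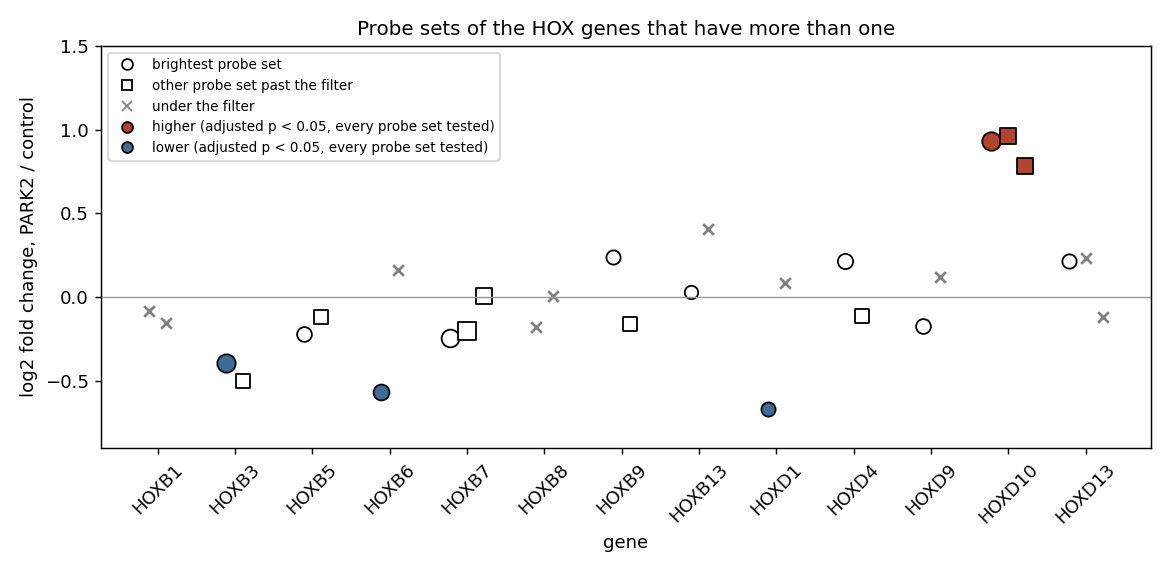
Log2 fold change (PARK2 over control) of every probe set of the 13 HOX genes that have more than 1. Circles are the brightest set of a gene, squares other sets past the filter and crosses sets under it, larger symbols are brighter, and filled symbols passed with every probe set tested. HOXD10 is the gene in which 3 probe sets rose.

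The second probe sets bear on how far a gene's value rests on 1 set. Of the 44 HOX probe sets, 31 passed the filter, and with every probe set tested 4 were higher and 4 were lower, against 9.1% higher, 11.3% lower and 20.4% in either direction of the 26603 probe sets tested. The HOXC6 set and the 3 HOXD10 sets were the higher ones. HOXD11 was no longer called there (adjusted p = 0.076). Of 6 genes with more than 1 set past the filter, HOXB7, HOXB9 and HOXD4 had sets of opposite sign. In HOXB7, the brighter sets had -0.24 and -0.20 and the dimmest had 0.0051, and none passed. For HOXB6 and HOXD1, the second set lay under the filter at 0.16 and 0.082, without the fall of the brighter set, and for HOXC6, HOXC9 and HOXD11 there was no other set.

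**Figure D4:**
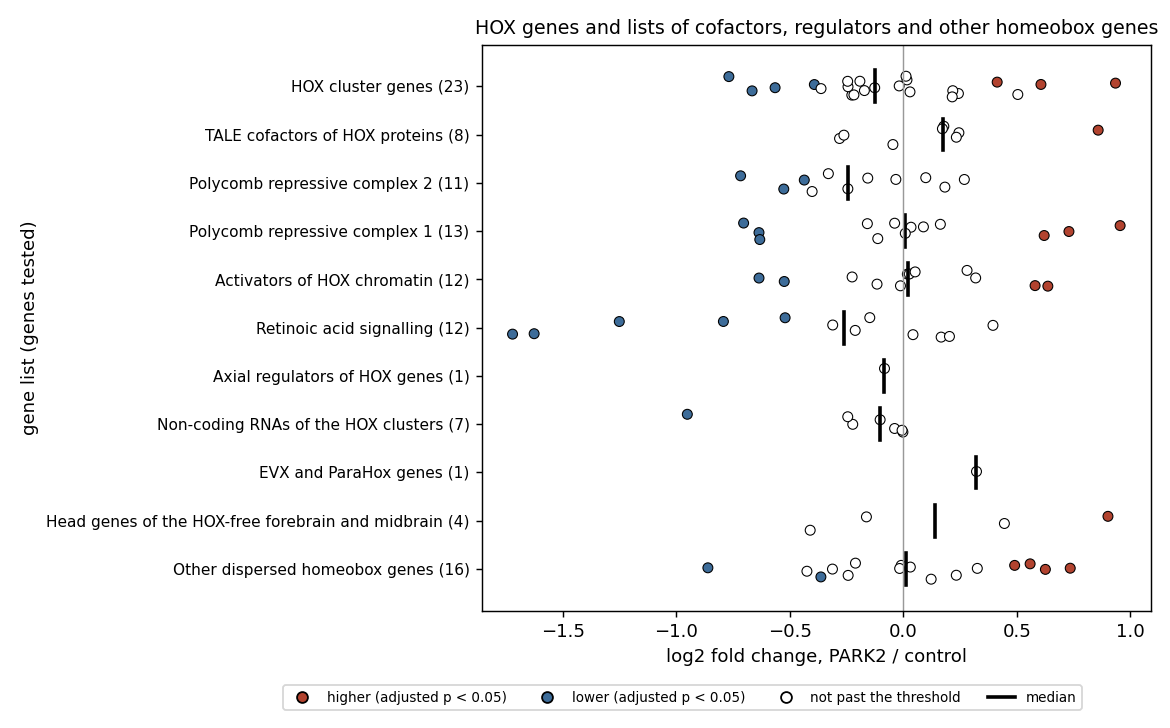
Log2 fold change (PARK2 over control) of the tested HOX genes and of the tested genes of 10 lists of cofactors, regulators and other homeobox genes, with the number tested in brackets. Points are genes, filled when past the threshold, and the vertical bar is the median. Retinoic acid signalling holds the largest falls, at -1.72, -1.63 and -1.25.

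The genes that work with or on HOX genes were described by 10 lists. Of 150 genes, 85 were tested, 11 were higher and 16 were lower, to be read against the 13.3% and 15.6% of all genes. Among cofactors of the TALE class, which bind DNA beside HOX proteins, 1 of 8 tested genes rose and 0 fell (median 0.18). PKNOX1 averaged 248 ± 3.77 in PARK2 cells and 132 ± 29.8 in control cells (0.86, adjusted p = 3.6e-05), and its 3 probe sets past the filter all rose with every probe set tested.

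In Polycomb repressive complex 2, which writes the silencing mark on HOX chromatin, 0 of 11 genes rose and 3 fell (median -0.24). RBBP7, a histone-binding subunit, averaged 2062 ± 42.9 in PARK2 cells and 3413 ± 383 in control cells (-0.72, adjusted p = 4.1e-06). SUZ12, a core subunit, averaged 1725 ± 185 in PARK2 cells and 2484 ± 77.5 in control cells (-0.53, adjusted p = 0.00090), but did not pass with the mean of its probe sets (-0.37, adjusted p = 0.088). JARID2, which helps to recruit the complex, fell narrowly (-0.44, adjusted p = 0.035), and this call was lost with 5 of the 6 arrays left out in turn (adjusted p up to 0.167). Set against the median of their nearest tested genes, as above, RBBP7 (-0.23, adjusted p = 0.024) and SUZ12 (-0.27, 0.023) had smaller falls. JARID2 had a larger one in that setting (-0.57, adjusted p = 0.00099), and all 3 genes stayed called. In Polycomb repressive complex 1, 3 of 13 rose and 3 fell (median 0.0085): PCGF3 (0.96) and CBX7 (0.73) were among the rises and PCGF5 (-0.70) and PCGF2 (-0.64) among the falls. With the mean of their probe sets, PCGF3 (0.31, adjusted p = 0.127) and PCGF2 (-0.27, adjusted p = 0.203) did not pass. Of 12 activators of HOX chromatin, 2 rose and 2 fell (median 0.022). ASH2L (0.64), a subunit of the KMT2 methyltransferases, and MLLT3 (0.58), an elongation factor partner, rose. Menin, coded by MEN1 (-0.64), and the demethylase KDM6A (-0.52) fell. All of these calls rest on probe sets that can read several transcripts. Without such sets, MLLT3 had 0.20 (adjusted p = 0.581), and ASH2L, MEN1 and KDM6A had no value. MLLT3 was also lost without PARK2 replicate 2 (adjusted p = 0.0837), PARK2 replicate 3 (0.0615) or control replicate 2 (0.0752). MEN1 was lost without PARK2 replicate 1 (0.0561) or control replicate 1 (0.0554). KDM6A was lost without PARK2 replicate 1 (0.182) or control replicate 2 (0.0719), and with the mean of its probe sets (-0.33, adjusted p = 0.123).

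Retinoic acid signalling had 0 higher and 5 lower of 12 tested genes (median -0.26). STRA6, the receptor that takes up retinol, had 47.6, 65.0 and 58.3 on the PARK2 arrays, against 301, 224 and 165 on the control arrays (-1.72, SE 0.18, adjusted p = 4.1e-12). DHRS3, which turns retinaldehyde back into retinol and is itself induced by retinoic acid, had 357, 382 and 325 on the PARK2 arrays, against 1496, 1053 and 906 on the control arrays (-1.63, adjusted p = 9.3e-14). ALDH1A3, which makes retinoic acid, had 950.3, 987 and 939.8 on the PARK2 arrays, against 2563, 2252 and 2123 on the control arrays (-1.25, adjusted p = 5.5e-12). In all 3 genes the groups did not overlap. RDH10, which makes retinaldehyde, averaged 841 ± 31.7 in PARK2 cells and 1472 ± 134 in control cells (-0.79, adjusted p = 4.1e-06). RARB, a receptor gene named here after its value was seen, averaged 465 ± 57.6 in PARK2 cells and 674 ± 77.0 in control cells (-0.52, adjusted p = 0.0054). The part of retinoic acid genes in the HOX values was not tested.

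Among the non-coding RNAs of the clusters, 1 of 7 tested fell and 0 rose (median -0.10), and the fall was HAGLR. HOTAIR, of the HOXC cluster, was under the filter at 0.866 ± 0.088 in PARK2 cells and 4.97 ± 2.76 in control cells. The single tested axial regulator, GDF11, had -0.086 (adjusted p = 0.810), and the single tested ParaHox gene, GSX2, had 0.32 (adjusted p = 0.410). Head genes, which mark the HOX-free forebrain and midbrain, had 4 tested, with 1 higher. This was LHX2, at 326 ± 17.4 in PARK2 cells and 168 ± 19.6 in control cells (0.90, adjusted p = 6.8e-06), while its second probe set had 0.17 and did not pass. Of 16 other homeobox genes tested, 4 rose and 2 fell (median 0.011). SIX2 (0.74), SHOX2 (0.63) and IRX5 (0.56) were among the rises. IRX5 was lost without PARK2 replicate 2 (adjusted p = 0.110), PARK2 replicate 3 (0.0766) or control replicate 2 (0.0579). SIX2 was lost without control replicate 3 (0.083), and its other probe set, under the filter, had the opposite sign with groups that did not overlap (-0.33). SHOX2 kept its call in the 20 alternatives that gave it a value, with 0.35 and no call in its second probe set. MSX1 fell, at 91.7 ± 5.42 in PARK2 cells and 182 ± 35.9 in control cells (-0.86, adjusted p = 5.5e-05), though its other probe set had -0.11 and did not pass.

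Marker genes were read on the same arrays, whose median intensities ran from 16.2 to 19.3 in PARK2 cells and from 16.7 to 18.4 in control cells. Of 8 glioma or astrocyte markers, 7 were tested, 2 rose (GFAP 0.53 and SOX2 0.30) and S100B fell (-1.39). The GFAP groups overlapped, with 319 to 396 on the PARK2 arrays and 207 to 338 on the control arrays, and a second, dim GFAP probe set had the opposite sign and did not pass (-0.59, adjusted p = 0.219). SOX2 and VIM were bright in both lines. CHI3L1 was under the filter, at 0.649 ± 0.287 in PARK2 cells and 14.9 ± 1.11 in control cells. Its other probe sets, also under the filter, had 0.28 and -0.33. Neuronal markers rose in 2 of 2 tested genes, SYT1 (2.50) and SNAP25 (1.26), and their list summed to 190 to 256 on the PARK2 arrays, against 26.4 to 34.7 on the control arrays, with RBFOX3 under the filter in both. Of 5 epithelial markers, 2 were tested: KRT18 fell (-1.12), and KRT8 averaged 39.1 ± 1.47 in PARK2 cells and 40.5 ± 9.71 in control cells (-0.023, adjusted p = 0.954). EPCAM, CDH1 and KRT5 were under the filter, and the list, in which KRT18 was the member called, summed to 134 to 144 on the PARK2 arrays, against 219 to 316 on the control arrays. None of the tested fibroblast, leukocyte, endothelial or oligodendrocyte markers was called, and PTPRC was under the filter. The part of these markers in the HOX results was not tested, and in bulk RNA fewer cells of a type and less RNA per cell cannot be told apart.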

How the data were processed

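Expression was measured in U251 cells on 6 Affymetrix arrays, 3 of the PARK2 line and 3 of the GFP control line, grouped by the labels. The authors deposited a linear intensity for each probe set on each array. The submitters' processing notes name GCOS and MAS5 without version or role, and the scaling stays unknown (2% trimmed means of 137 to 168). Detection calls and the level of the transgene were not used here, so the labels were taken as given.

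Of 54675 probe sets, 41091 had 1 symbol in GEO's platform annotation, 1801 had several and 11721 had none here. Matching gene numbers to RefSeq's gene table (GRCh38.p14) changed 0 symbols and left 54 numbers unmatched. That table also gave the gene order. Promoters are from RefSeq's table of the same build.

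Values were taken as log2(value + 16) without normalization. Probe sets under the 40th percentile of the mean log2 value (lowest mean intensity kept 9.87) and those without a single symbol were left out, and the brightest probe set stood for each gene. PARK2 was compared with control by limma 3.58.1 (R 4.3.3), using a variance trend over intensity and Benjamini-Hochberg adjustment over 13720 genes at 0.05. Prior degrees of freedom were 60.8 against 4 residual ones (10.6 without the trend), so small adjusted p-values lean on the model. The step was tested on simulated arrays of known fold changes. With 3 arrays a group, an exact permutation test cannot go below 0.1, and the number of arrays limits precision.

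Members and lists were chosen with earlier results of these data known. Named genes were all HOX genes, up to 4 called members of each list with the largest change (or the 2 with the smallest p), and the 3 nearest tested genes on each side of a cluster. Arrays correlated at 0.989 to 0.992 inside a group and at 0.959 to 0.961 across groups. Alternatives covered the filter, pseudocount, normalization, variance model, array weights, probe set choice, threshold, neighbour correction, replicate block and leaving out each array.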

Additional observations from a re-analysis of the deposited data

How the results depend on the processing

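Of 21 alternatives, 6 left out 1 array each. HOX genes higher in PARK2 cells numbered 3 and lower ones 4 under quantile normalization, median centring, trimmed-mean scaling and pseudocounts of 1 and 64. Fewer HOX genes fell with no filter (1) and at a threshold of 0.01 (1), and array weights, fitted gene by gene because the default fit did not converge, gave 5 HOX rises, 3346 rises over all genes and 17 in the lists. HOXC11 (0.47, adjusted p = 0.045) and HOXD4 (0.35, 0.033) were the added rises, HOXC10 (-0.35, 0.012) and HOXC13 (-0.39, 0.012) passed as falls, and HOXC11 also passed without the variance trend (adjusted p = 0.032). Dropping probe sets that can read several transcripts left 1 HOX rise, 2 HOX falls and 7 rises in the lists, and the 0.01 threshold left 7 rises in the lists. With 1 array left out, HOX rises ran from 2 to 3 and HOX falls from 1 (without PARK2 replicate 1 or 2) to 4. Over all genes, rises ran from 1208 (without PARK2 replicate 3) to 2800 (without control replicate 1) and falls from 1550 to 2618, and in the lists rises ran from 7 to 14 and falls from 11 to 19. Same-numbered arrays did not clearly deviate together (r of 0.168, 0.0453 and 0.0649 across genes, others -0.122 to 0.0687), and not every array correlated best with its own number. With the replicate block, 2 HOX genes rose and 3 fell. Signs turned in genes that were not called: with 1 array left out, HOXC4 ran from -0.10 to 0.035, HOXB13 from -0.16 to 0.24, HOXB2 from -0.11 to 0.11, HOXD8 from -0.12 to 0.15 and GDF11 from -0.19 to 0.040. HOXB13 became -0.0062 under quantile normalization, HOXD8 -0.0022 under median centring and HOXC4 0.0061 under trimmed-mean scaling. Array weights gave GSX2 -0.036, HOXB2 -0.099 and HOXC8 0.031, and dropping shared probe sets gave GDF11 0.25 and HOXB9 -0.16. The neighbour correction gave HOXB5 0.091, HOXB7 0.064 and HOXD8 -0.14, and KDM6A, which was called, 0.076. The causes were not tested.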

Other observations

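A further 3 probe sets carry 3 symbols each, a HOX symbol among them, and so name no single gene. Their intensities ran from 0.633 to 55.1 on the PARK2 arrays and from 1.37 to 57.0 on the control arrays. Their log2 fold changes were -0.07, -0.17 and -0.64, and they were not tested as genes.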
